A study of Homo sapiens with 18 samples.

Results

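PEO1 and PEO4 are established cell lines of high-grade serous ovarian cancer that were grown from the same patient, PEO1 while the disease was sensitive to platinum and PEO4 after it had become clinically resistant. Their chromatin accessibility was compared by ATAC-seq, in which the Tn5 transposase cuts and tags open DNA, with 3 libraries of each line out of 18 libraries of 6 lines in the series. The signal was given as FPKM in windows of 1000 bases. Of 89428 windows, 77654 had a mean over 1 FPKM in these 6 libraries and were kept, whatever their change. The limit fell in a dense part of the distribution, with 1157 windows kept between 1 and 1.1 FPKM and 1063 left out between 0.9 and 1 FPKM. Both lines grew in RPMI-1640 medium with glutamine and fetal bovine serum, and the labels name no drug treatment of the cells that were assayed. Each condition is a single cell line, so the sensitive or resistant state cannot be told apart from any other difference between the lines. The labels do not say whether the 3 libraries of a line came from separate cultures, so p-values measure only the spread between these libraries.

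Most regulatory DNA that differs between cell states lies far from genes, in enhancers, where transcription factors such as AP-1 or RUNX bind and keep nucleosomes away. Promoters of housekeeping genes stay open in nearly every cell, whereas promoters of developmental and signalling genes open with lineage. Carcinomas that survive platinum often differ in DNA repair, drug transport, adhesion, matrix and developmental signalling, and PEO1 and PEO4 are widely used as a model of lost and regained BRCA2 function.

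The sequences shown here carry 3 patterns, AP-1, RUNX and NFI, whose frequency differed between distal windows of opposite direction, as described further on. Distal windows had their centre over 5 kb from any protein-coding transcript start. The first 3 come from the distal windows with the largest decrease in PEO4 that hold the AP-1 pattern TGANTCA. The next 3 come from those with the largest increase that hold the RUNX pattern TGTGGTT, and the last from that with the largest increase that holds the longer NFI pattern. Windows on chromosomes 8, X and Y, and those whose libraries overlapped between the lines, were left out of this choice. Each is 151 bases of the plus strand of GRCh37, with every match in capitals, so that a RUNX match on the minus strand reads AACCACA. They lie at chr2:177507001-177507151 (between genes, nearest start MTX2), chr18:67235499-67235649 (within DOK6), chr12:128597986-128598136 (between genes, nearest start TMEM132C), chr4:24838955-24839105 (within CCDC149, nearest start SOD3), chr12:44783609-44783759 (between genes, nearest start NELL2), chr11:46689209-46689359 (within ATG13, nearest start ARHGAP1) and chr10:50104948-50105098 (within WDFY4, nearest start LRRC18).
MTX2 window: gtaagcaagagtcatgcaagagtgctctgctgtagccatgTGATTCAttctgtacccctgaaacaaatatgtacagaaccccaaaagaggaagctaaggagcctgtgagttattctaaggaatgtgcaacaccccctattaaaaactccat
DOK6 window: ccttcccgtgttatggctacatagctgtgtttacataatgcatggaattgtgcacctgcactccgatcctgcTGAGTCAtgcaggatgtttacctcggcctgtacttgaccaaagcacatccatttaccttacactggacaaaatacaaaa
TMEM132C window: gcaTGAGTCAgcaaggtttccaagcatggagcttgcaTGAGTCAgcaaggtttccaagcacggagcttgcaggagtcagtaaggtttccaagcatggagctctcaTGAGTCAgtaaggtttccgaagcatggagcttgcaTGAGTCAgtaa
SOD3 window: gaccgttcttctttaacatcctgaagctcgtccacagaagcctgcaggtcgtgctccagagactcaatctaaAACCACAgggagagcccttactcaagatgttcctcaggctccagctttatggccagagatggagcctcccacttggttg
NELL2 window: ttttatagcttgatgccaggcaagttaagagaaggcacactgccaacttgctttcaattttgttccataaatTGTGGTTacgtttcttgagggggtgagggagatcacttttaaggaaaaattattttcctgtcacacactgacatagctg
ARHGAP1 window: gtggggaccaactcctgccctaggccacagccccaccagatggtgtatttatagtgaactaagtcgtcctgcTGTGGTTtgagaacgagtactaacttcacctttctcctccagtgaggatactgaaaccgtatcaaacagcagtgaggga
LRRC18 window: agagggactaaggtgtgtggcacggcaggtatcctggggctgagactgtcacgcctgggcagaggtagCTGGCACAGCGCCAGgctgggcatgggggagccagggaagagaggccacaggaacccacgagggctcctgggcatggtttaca

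The whole MTX2 window of 1000 bases read 4.25, 4.01 and 5.24 FPKM in the PEO1 libraries and 0, 0.144 and 0.249 FPKM in the PEO4 libraries. The TMEM132C window holds 9 AP-1 matches, 4 of them in the stretch shown, which is a tandem repeat. It read 14.1, 12.7 and 14.4 FPKM in PEO1 and 0.116, 0.192 and 0.249 FPKM in PEO4. How many copies of the repeat each line holds is not known, so these values are less certain. The SOD3 window, near the gene of the extracellular superoxide dismutase, read 0.304, 0.174 and 0.446 FPKM in PEO1 and 8.84, 10.8 and 7.87 FPKM in PEO4. Between these 2 lines the MTX2 and TMEM132C windows were thus high in PEO1 and the SOD3 window in PEO4. The libraries did not overlap, as the choice of windows required. In the 4 other lines the means were 0.249 to 0.675 FPKM in the TMEM132C and SOD3 windows, but the MTX2 window also read 4.17 FPKM in PEA2.

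The recovered depth was 8972042 to 11461290 reads per PEO1 library and 17201132 to 20836579 per PEO4 library, of which 38.9 to 40.8% and 32.8 to 35.9% lay in the windows of the table. The median window held 25 to 33 reads in a PEO1 library and 39 to 47 in a PEO4 library, so a level near 0 is known less well in PEO1. Library medians were 3.23 to 3.40 FPKM in PEO1 and 2.54 to 2.64 FPKM in PEO4, and each library was therefore centred on its median log2(FPKM + 0.1). Whole regions of chromosomes also differed: over 572 bins of 5 Mb, the median change ran from -1.56 to 1.88 on the log2 scale, and 31.3% of the variance of the change lay between bins. Copy number and accessibility of a whole region cannot be told apart in ATAC-seq of bulk cells, so the median of its bin was removed from every window. The 3 bins with the highest shift lay at 145 to 150 Mb (1.88) and 140 to 145 Mb (1.77) of chromosome 8 and at 30 to 35 Mb of chromosome 6 (1.60), the last holding the HLA genes. The 3 lowest lay at 240 to 245 Mb of chromosome 1 (-1.56), 60 to 65 Mb of chromosome 4 (-1.48) and 165 to 170 Mb of chromosome 3 (-1.46). All log2 fold changes below are PEO4 against PEO1 on the log2(FPKM + 0.1) scale after this removal. That scale understates changes of windows with few reads. FPKM values are as deposited, and so are the bounds written as at least so many fold, which still contain library and regional shifts.

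Which class of windows changed was asked first, since distal elements and promoters are held open in different ways. Distal windows changed far more often than promoter windows, whose centre lay within 1 kb of a protein-coding start. Of 42741 distal windows, 2130 were higher in PEO4 by over 2 log2 units with a limma adjusted p under 0.001 (4.98%) and 1254 were lower (2.93%). Of 26477 promoter windows, 91 were higher (0.344%) and 82 lower (0.31%), and of 8436 windows between these distances 149 were higher (1.77%) and 68 lower (0.806%). At a log2 change over 1 and an adjusted p under 0.05, 5390 distal windows were higher (12.6%) and 7090 lower (16.6%), against 895 (3.38%) and 505 (1.91%) of the promoter windows. The spread of the change was correspondingly wider in distal windows (SD 1.09 across windows) than in promoter windows (SD 0.51), and their medians lay on opposite sides of 0, at -0.15 and 0.20. As deposited, without centring or regional removal, 1762 distal windows were called higher and 4004 lower, so the excess of higher windows at the stricter limit rests on the scaling.

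**Figure D1:**
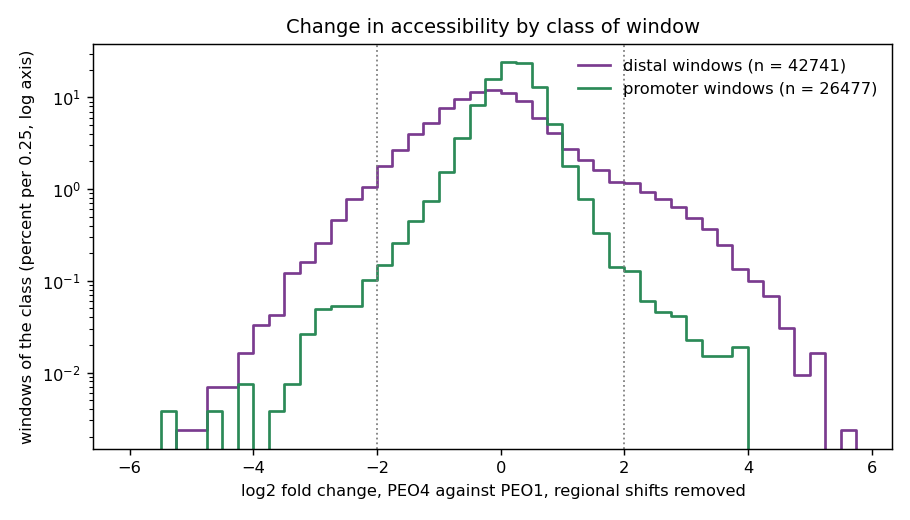
Distribution of the log2 fold change of PEO4 against PEO1 after regional shifts were removed, for 42741 distal and 26477 promoter windows, as percent of the class per bin of 0.25 on a log axis; dotted lines mark changes of 2 in either direction. The distal curve is wider on both sides, with a shoulder beyond 2 on the higher side.

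Windows that opened in PEO4 were close to background in PEO1, and lower windows in PEO4, which the limit on the change in part requires. The 2130 higher windows had a median level of 0.566 FPKM in PEO1 and 2.92 FPKM in PEO4, and the 1254 lower windows went from 3.84 to 0.446 FPKM. In 180 of the higher windows all 3 PEO1 libraries held 3 reads or fewer, and in 27 of the lower windows all 3 PEO4 libraries did. Both groups lay farther from genes than tested distal windows as a whole: 10.4% of the higher and 12.4% of the lower windows were over 500 kb from the nearest protein-coding start, against 6.34% of all. About the same share lay inside a protein-coding gene, 39.2% of both groups against 42.6% of all. In the 4 other lines of the series, 70.0% of the higher and 46.6% of the lower windows had a mean under 1 FPKM in every line, against 29.0% of all distal windows tested. In PEA2, a resistant line from another patient, 7.04% of the higher and 27.9% of the lower windows had a mean over 2 FPKM, against 34.7% of all.

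The 3 sequence patterns printed above differed in frequency between the directions. AP-1, the family of FOS and JUN dimers, had a TGANTCA match on either strand in 35.6% of the 2130 higher distal windows (95% Wilson interval 33.6 to 37.7%) and in 69.4% of the 1254 lower ones (66.8 to 71.9%), against 52.9% of all distal windows tested. RUNX factors, regulators of lineage, had a TGTGGTT match in 28.4% of the higher (26.5 to 30.4%) and 16.5% of the lower windows (14.6 to 18.7%), against 20.5% of all. The full palindromic NFI pattern was rarer, at 2.82% of the higher (2.20 to 3.61%) and 0.40% of the lower windows (0.17 to 0.93%), against 1.51% of all. These intervals cover counting error only, and neighbouring windows overlap by 100 bases. Matches of AP-1 repeated within a window were also less frequent on the higher side, with 2 or more in 6.67% of the higher windows, 29.3% of the lower and 17.8% of all.

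Read the other way, distal windows with an AP-1 match were called lower in 3.85% and higher in 3.36% of 22611 cases, and those without one in 1.91% and 6.81% of 20130 cases. The median change was -0.33 with a match and 0.04 without. With an NFI match 60 of 644 distal windows were higher and 5 were lower. Along the whole range of change, the share with AP-1 went from 64.3% of the 168 windows under -3 and 70.2% of the 1086 windows between -3 and -2 to 29.9% of the 623 windows over 3, and that with NFI from 0% to 2.89%. The shares with RUNX were 16.7%, 16.5% and 26.3% in the same 3 bins, and 29.2% between 2 and 3. For NFI the lowest bin holds 0 of 168 windows, which allows a share of up to 1.79% (3 windows of the total), while the Wilson bound drawn in the plot is 2.24%.

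**Figure D2:**
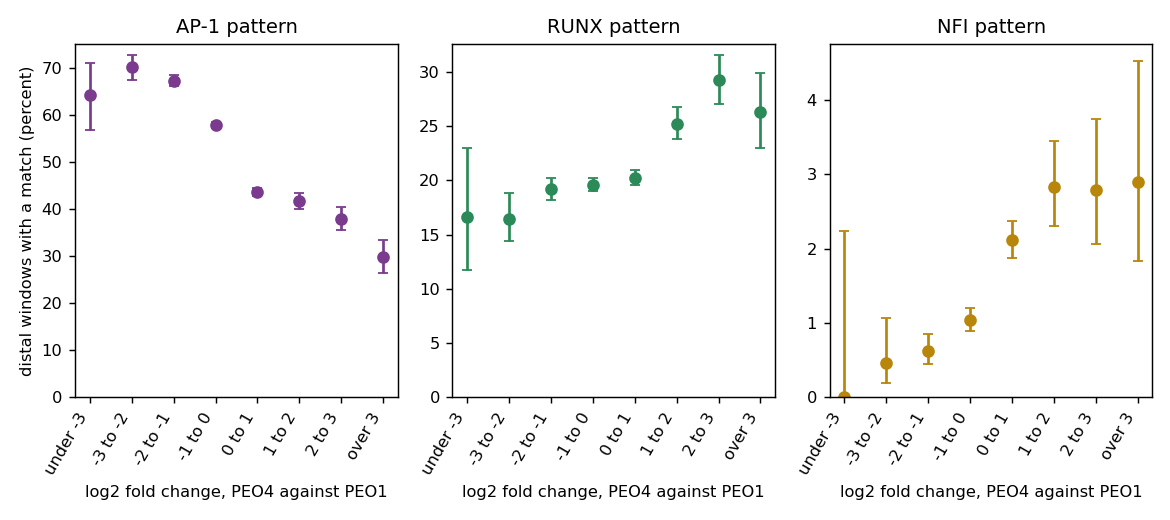
Percent of distal windows with at least 1 match of the AP-1, RUNX and NFI patterns in 8 bins of the log2 fold change of PEO4 against PEO1, with 95% Wilson intervals; vertical axes start at 0 and differ between panels. AP-1 falls from 70.2% between -3 and -2 to 29.9% over 3, while RUNX and NFI are higher on the right side.

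The AP-1 difference was also seen within classes of base composition and level. In windows of 40 to 45% GC, 39.1% of the higher and 76.3% of the lower windows held AP-1, and over 50% GC the values were 26.7% and 49.8%. In windows with a mean over 3 FPKM they were 35.3% and 73.3%. RUNX held its difference at 40 to 45% GC (32.2% and 14.2%) but not over 50% GC, where 18.9% of the higher and 17.5% of the lower windows had a match. Among the other patterns searched, SOX (AACAATG) was in 15.4% of the higher and 21.3% of the lower windows, FOX (TGTTTAC) in 11.4% and 15.1%, TEAD (ACATTCC) in 17.3% and 18.5%, and GRHL (AACCNGTT) in 7.51% and 8.05%. CTCF matches were few, in 3 of the higher and 4 of the lower windows (0.14% and 0.32%), against 1.24% of all distal windows. A match is a stretch of letters and not a measured binding site.

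Among higher windows with the largest changes, 1 that lies 59.7 kb from MANEA, which trims N-glycans in the Golgi, rose from 0.304, 0.611 and 0.780 FPKM to 13.2, 14.7 and 13.4 FPKM (log2 fold change 5.07 ± 0.25 (SE), adjusted p by limma = 1.11e-14). It lies between genes, and no PEO1 library came near any PEO4 library. Within genes, a window in EFEMP1, which encodes the matrix protein fibulin-3, held at most 3 reads in any PEO1 library. It was at least 11.6-fold higher in PEO4, where it read 3.66, 3.31 and 3.44 FPKM. A window within POR, the electron donor of cytochromes P450, was at least 12.3-fold higher with 2 reads at most in PEO1. The nearest start to a further one was CDH2, N-cadherin, 521 kb away, at least 11.4-fold higher. The remaining 5 windows named lay nearest to SCCPDH, PCDH9, SOD3, SASH1 and NELL2, with log2 fold changes of 4.80 to 5.13. These bounds use FPKM as deposited, with 3 reads per library as the floor.

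Among lower windows, 1 that lies 472 kb from TBX3, the gene of a T-box repressor, fell from 16.2, 14.9 and 14.4 FPKM in PEO1 to 0.407, 0.192 and 0.448 FPKM in PEO4 (log2 fold change -4.53 ± 0.22, adjusted p = 1.11e-14). A window 51.1 kb from ANXA1, which encodes annexin A1, read 5.97, 6.72 and 5.46 FPKM in PEO1 and 0, 0.240 and 0.199 FPKM in PEO4 (-4.11). The highest starting level was near ZNF722, at 27.8, 27.0 and 26.3 FPKM in PEO1 against 0.698, 0.672 and 0.847 FPKM in PEO4 (-4.23). All 3 went from clearly open to near background. The others were nearest to MTX2, ZNF492, DOK6, TMEM132C, COL22A1, CYB5R4 and NPAP1, with changes of -5.07 to -4.10. Of the 10 named lower windows 7 held an AP-1 match and 2 a RUNX match, and of the 10 windows with the largest increase 1 held AP-1 and 2 held RUNX.

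**Figure D3:**
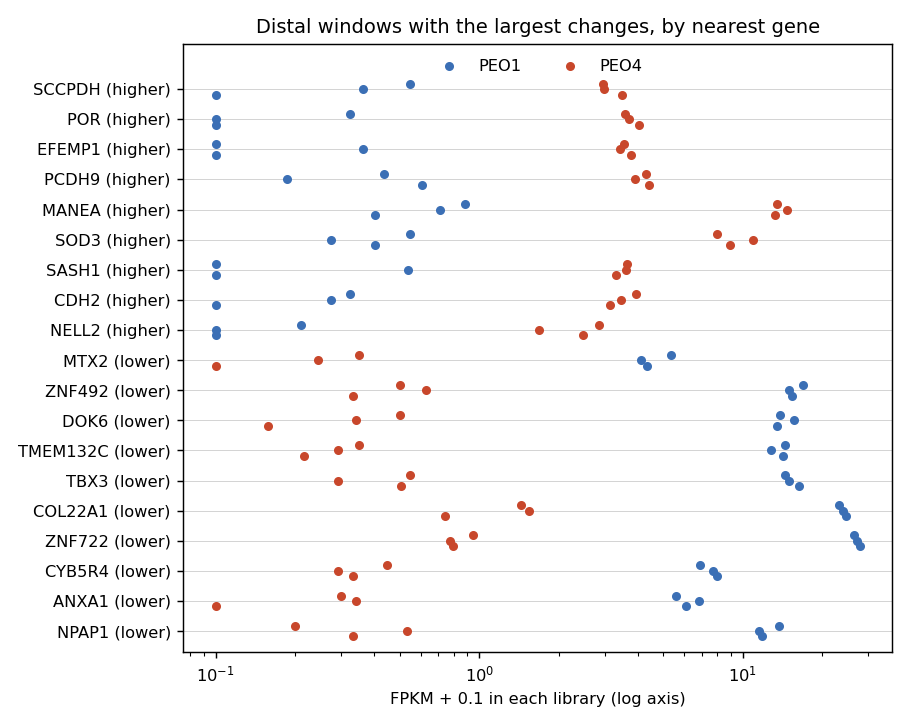
FPKM + 0.1 on a log axis in each of the 3 PEO1 and 3 PEO4 libraries for 9 of the 10 distal windows with the largest increase and the 10 with the largest decrease in PEO4, at least 1 Mb apart, labelled by the nearest protein-coding start. The libraries of the lines do not overlap in any of these windows, which is part of the rule that chose them.

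A small part of the changed distal windows stood together. Clusters of at least 5 windows called in the same direction, with gaps of at most 50 kb, numbered 10 on the higher side with 77 windows (3.62% of those called) and 4 on the lower side with 26 windows (2.07%). No cluster held a distal window called in the opposite direction.

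One of the higher clusters held 6 of 7 windows upstream of CDON at chr11:125949601-125982100, with medians of 0.61 FPKM in PEO1 and 4.85 FPKM in PEO4. CDON is a co-receptor for hedgehog ligands, and BOC, its paralog with the same role, had 6 of 13 distal windows higher and 0 lower, though it was named after its values were seen. Neither promoter passed the limit: CDON read 18.7, 22.2 and 20.2 FPKM in PEO1 and 26.5, 26.7 and 21.3 FPKM in PEO4 (0.16), and BOC changed by 0.64. By contrast CRABP2, the gene of a cellular carrier of retinoic acid, changed at both levels. Between CRABP2 and NES, which encodes nestin, 5 of 7 distal windows were higher at chr1:156660301-156668500, and the CRABP2 promoter rose from 2.63, 2.01 and 1.78 FPKM to 10.3, 11.5 and 9.46 FPKM (log2 fold change 2.38, adjusted p = 9.43e-13). Clusters also lay within AHDC1 (10 of 18), KLHL29 (5 of 5) and DCPS and ST3GAL4 (5 of 8), near ADGRB3 (5 of 5) and near ZNF703 (5 of 7).

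On the lower side, 6 of 6 distal windows tested at chr14:101910601-101948500 fell, from a median of 4.46 to 0.50 FPKM. They are nearest to DIO3, the imprinted gene of the deiodinase that inactivates thyroid hormone. Of the 7 distal windows tested within 100 kb of the DIO3 start 5 were lower and 1 was higher. A cluster of 5 of 5 on chromosome 12 nearest to TMEM132C went from 3.60 to 0.27 FPKM, and 5 of 5 nearest to ZNF722 from 13.5 to 0.55 FPKM. A pair of clusters with opposite directions lay at 5S ribosomal RNA sequences, which occur in many copies. On chromosome 1, 10 of 11 windows at chr1:228717001-228743200 fell, next to an array with 17 annotated 5S genes within 50 kb, the nearest 2.82 kb away. On chromosome 16, 6 of 6 windows at chr16:34981201-34986700 rose, over 6 annotated 5S pseudogenes. Only uniquely aligned reads were kept by the authors, but copies that the reference lacks or that differ by few bases can still exchange reads, so these values are uncertain.

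At gene promoters, 95.7% of 13605 genes changed by less than 1 log2 unit. With a change over 1 and an adjusted p under 0.05, 369 promoters were higher (2.71%) and 218 lower (1.6%). That balance moved with the scaling: 1585 were higher and 459 lower with regional shifts kept, 712 and 994 as deposited, and 164 and 490 after correction for GC content. Over all gene promoters the median change was 0.22, and it was -0.02 as deposited and -0.08 after GC correction. Promoters were called more often in the direction of the distal windows nearest to them than in the opposite one: of 550 genes with a distal window called higher and none lower, 5.09% had a higher and 0.73% a lower promoter, and of 327 genes with the reverse, 1.83% and 5.81%. Of 4933 genes whose distal windows were tested with none called, the shares were 3.47% and 2.21%. These are counts over genes, which share bins and libraries.

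Among the largest promoter increases, FSIP2, a protein of the sperm tail, read 0.506, 0.436 and 0.446 FPKM in PEO1 and 7.44, 7.10 and 7.37 FPKM in PEO4 (log2 fold change 3.71 ± 0.20, adjusted p = 5.56e-14). ZSCAN31, a zinc-finger gene, held at most 2 reads in any PEO1 library and read 4.48, 5.76 and 3.69 FPKM in PEO4. As deposited it was at least 15.5-fold higher, and its log2 fold change was 4.72 as deposited and 3.74 after regional removal. ECT2L, a relative of the ECT2 exchange factor, went from 0.101, 0.436 and 0.223 FPKM to 3.55, 2.88 and 3.49 FPKM (3.88). Each of the 3 was near background in PEO1 and higher in all PEO4 libraries. The other named promoters were those of SMR3A, C3orf14, ZNF69, AOC1, CST7, PLEKHG4 and NUPR2, with changes of 2.65 to 3.79.

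The largest decrease was at DNAH9, the heavy chain of an axonemal dynein of motile cilia. Its promoter read 6.68, 9.07 and 6.80 FPKM in PEO1, while no PEO4 library held more than 2 reads. As deposited it was at least 48.2-fold lower, and its log2 fold change was -5.36 as deposited and -4.69 after regional removal. DLGAP1, which encodes a synaptic scaffold protein, fell from 10.0, 12.3 and 12.5 FPKM to 0.581, 0.816 and 0.448 FPKM (log2 fold change -3.17 ± 0.21, adjusted p = 1.96e-12). SCG5, the chaperone of prohormone convertase PC2, fell from 7.18, 6.98 and 7.13 FPKM to 0.291, 0.240 and 0.399 FPKM (-3.19). These promoters were thus open in every PEO1 library and nearly closed in every PEO4 library. PEG3, an imprinted zinc-finger gene, shares its promoter window with ZIM2 and changed by -2.98 from 3.04, 3.14 and 2.56 FPKM to 0.233, 0.336 and 0.399 FPKM. The others were BEX1, ADAM28, HOXC10, XYLT1, NPFFR2 and ZNF727, with changes of -3.50 to -2.83, and COL22A1, named for its 6 lower distal windows out of 18, had a promoter change of -2.63.

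**Figure D4:**
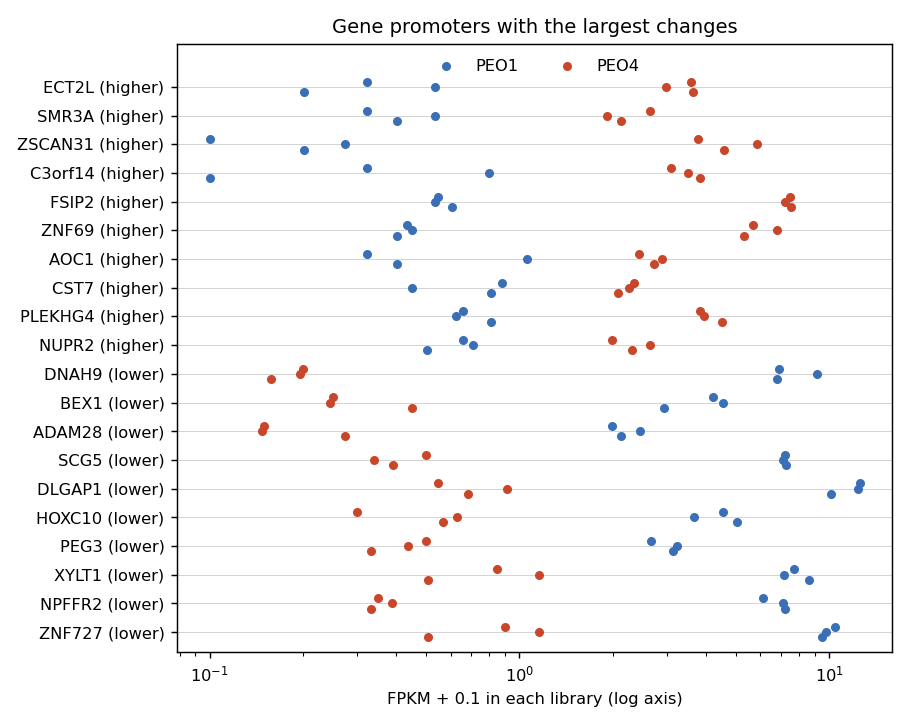
FPKM + 0.1 on a log axis in each library for the 10 gene promoters with the largest increase and the 10 with the largest decrease in PEO4, at least 1 Mb apart. PEO1 and PEO4 libraries do not overlap in any of the 20, which is part of the rule that chose them.

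Gene families were read against the 2.71% and 1.6% of all promoters. NOTCH signalling, in which the receptor's cleaved tail joins the DNA-binding protein RBPJ to switch on HES and HEY repressors, had 5 of 17 promoters higher and 0 lower, with a list median of 0.54. HEYL, a target, rose from 0.708, 0.698 and 1.00 FPKM to 4.01, 4.03 and 3.44 FPKM (log2 fold change 2.18 ± 0.25, adjusted p = 6.48e-08), and HES4, another, from 5.06, 6.28 and 5.13 FPKM to 17.6, 20.7 and 15.2 FPKM (1.37). HES6, an inhibitor of HES1, rose from 13.8, 11.0 and 10.3 FPKM to 20.9, 22.8 and 19.3 FPKM (1.02). These 3 did not overlap between lines as deposited. HES1 itself did overlap, at 12.9, 10.5 and 9.59 FPKM against 11.2, 13.2 and 12.8 FPKM, and its change of 1.01 and that of RBPJ (1.13) passed the limit only once the lower level of their regions was removed. With regional shifts kept 3 of the 17 were called higher, and as deposited or after GC correction 2 were, with 1 lower as deposited.

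The promoters of the 3 NOTCH targets are shown as 250 bases before the start annotated by GENCODE, GRCh37, in the direction of transcription, with TGGGAA, the core that RBPJ binds, in capitals on either strand (TTCCCA on the other). They lie at chr3:193853687-193853936 (HES1), chr1:40105316-40105565 (HEYL, minus strand) and chr1:935478-935727 (HES4, minus strand).
HES1 promoter: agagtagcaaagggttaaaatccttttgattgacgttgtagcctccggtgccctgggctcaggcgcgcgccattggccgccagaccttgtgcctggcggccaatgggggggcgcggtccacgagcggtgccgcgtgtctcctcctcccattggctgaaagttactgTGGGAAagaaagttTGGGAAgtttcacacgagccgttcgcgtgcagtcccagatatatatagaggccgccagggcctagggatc
HEYL promoter: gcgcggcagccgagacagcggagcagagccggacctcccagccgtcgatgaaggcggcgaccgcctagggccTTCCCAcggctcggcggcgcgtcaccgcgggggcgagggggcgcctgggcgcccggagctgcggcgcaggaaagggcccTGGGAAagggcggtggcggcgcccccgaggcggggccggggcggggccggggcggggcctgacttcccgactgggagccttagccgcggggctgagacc
HES4 promoter: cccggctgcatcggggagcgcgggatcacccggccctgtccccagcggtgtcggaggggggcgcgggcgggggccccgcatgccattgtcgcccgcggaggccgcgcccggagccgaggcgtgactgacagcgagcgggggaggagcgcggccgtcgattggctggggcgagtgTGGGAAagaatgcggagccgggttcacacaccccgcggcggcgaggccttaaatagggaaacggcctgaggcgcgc
HES1 and HEYL each hold 2 matches and HES4 holds 1, whereas HES6 and RBPJ hold none. Of all 13605 gene promoters tested, 18.3% hold at least 1 match and 2.28% at least 2, so a single match is common. The 369 gene promoters higher in PEO4 held at least 1 match in 13.6% of cases and the 218 lower ones in 18.8%. The letters searched here were chosen after the promoter values were seen.

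Genes of the extracellular matrix had 6 of 24 promoters higher and 0 lower, but 6 and 3 as deposited and 2 and 3 after GC correction. COL6A2, a chain of collagen VI, rose from 0.607, 0.262 and 0.334 FPKM to 2.85, 3.36 and 2.44 FPKM (log2 fold change 1.67 ± 0.29, adjusted p = 2.36e-05). TIMP2, an inhibitor of matrix metalloproteinases, rose from 5.77, 6.28 and 4.35 FPKM to 18.2, 19.6 and 14.8 FPKM (1.13). Both keep this direction as deposited. LAMA1 and LAMB3, laminin chains of basement membrane, changed by 1.27 and 1.25, and TIMP3 by 1.09. With regional shifts kept LAMA1 and LAMB3 changed by only 0.79 and 0.64, and as deposited by 0.44 and 0.30. THBS1, thrombospondin, rose by 1.05 only after regional removal, from 19.7, 15.6 and 15.6 FPKM in PEO1 against 12.7, 12.2 and 11.8 FPKM in PEO4, and as deposited it was lower (-0.46). It also stands in the TGF-beta list, which had 3 of 21 higher and 0 lower (3 and 2 as deposited, 1 and 0 with quantile normalization, 0 and 1 after GC correction), with the ligand gene TGFB1 (1.12) and the target ID2 (1.08).

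Genes of mesenchymal transition had 3 of 19 promoters higher and 1 lower, but 1 and 1 as deposited, with quantile normalization or with bins of 1 Mb, and 0 and 1 after GC correction. VIM, the filament vimentin of mesenchymal cells, rose from 1.92, 1.75 and 1.56 FPKM to 3.37, 3.70 and 2.89 FPKM (log2 fold change 1.43 ± 0.20, adjusted p = 1.31e-06, and 0.95 after GC correction). SNAI1, a repressor of E-cadherin, rose from 7.39, 7.07 and 7.80 FPKM to 23.1, 26.5 and 18.4 FPKM (1.10, and 0.71 after GC correction), and TWIST1 by 1.04 (0.45). AXL, a receptor tyrosine kinase in the same list, fell from 1.92, 2.27 and 2.56 FPKM to 0.872, 0.960 and 0.897 FPKM (-1.47). Of 26 promoters of epithelial identity none was higher and 1 was lower, EHF, an ETS factor of epithelia, which went from 4.96, 4.01 and 2.01 FPKM to 0.930, 0.432 and 0.797 FPKM (-1.71). The list median was 0.41, and with regional shifts kept 5 of the 26 were higher and 1 lower. Of 86 distal windows of these genes 3 were higher, nearest to GRHL1 (2) and ELF3 (1), and 2 lower, nearest to EPCAM and ESRP1 (3.49% and 2.33% against 3.99% and 2.34% of all such windows). The E-cadherin promoter (CDH1) read 3.14, 3.40 and 2.56 FPKM in PEO1 and 4.13, 4.46 and 3.69 FPKM in PEO4, short of the limit at 0.56.

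Several homeobox and T-box genes, which specify tissues in development, fell in PEO4. In the list of DLX, PAX, IRX, LHX, TBX and sine oculis homeobox genes 7 of 31 promoters fell and 0 rose, with 4 to 10 lower and 0 to 3 higher under the other scalings. TBX3 fell from 35.3, 34.8 and 37.6 FPKM to 7.15, 8.64 and 6.68 FPKM (log2 fold change -1.65 ± 0.11, adjusted p = 2.96e-12), although the sign turned with bins of 1 Mb (0.71), where much of the bin around it is also lower. IRX1, an Iroquois factor, fell from 1.82, 3.14 and 2.01 FPKM to 0.349, 0.336 and 0.349 FPKM (-1.94). DLX5 and DLX6, neighbours that share enhancers, changed by -1.37 and -1.19. The remaining members were IRX6 (-1.57), TBX20 (-1.29) and PAX1 (-1.09).

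HOX genes, which set position along the body axis and in the Müllerian duct, had 4 of 16 promoters lower and 2 higher, with a list median of -0.57. The median was below 0 under every scaling tried, but only -0.15 with bins of 1 Mb and -0.08 with regional shifts kept. In the last setting 3 were higher and 3 lower, whereas after GC correction 1 was higher and 6 lower (median -0.76). HOXC10 fell from 4.96, 3.58 and 4.46 FPKM to 0.465, 0.528 and 0.199 FPKM (log2 fold change -3.13 ± 0.30, adjusted p = 1.63e-09) and HOXC9 from 3.34, 3.84 and 3.23 FPKM to 0.291, 0.288 and 0.299 FPKM (-3.10). HOXC13 (-1.89) lies in the same cluster, and HOXB6 (-1.19) in another. HOXB2 and HOXD8 were the higher ones, HOXB2 from 4.35, 3.93 and 3.79 FPKM to 10.6, 10.1 and 10.7 FPKM (1.41). So the family moved in both directions, with neighbours in the HOXC cluster falling together.

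Genes of WNT signalling, a pathway of secreted ligands and frizzled receptors, were called at promoters and at distal windows. Of 37 promoters 1 was higher (WNT3, a ligand, 1.54) and 2 lower (FZD10, a receptor, and DKK1, a secreted inhibitor). Of 173 distal windows nearest to genes of the list and within 100 kb, 12 were higher and 10 lower, or 6.94% and 5.78% against 3.99% and 2.34% of the 27439 such windows of all genes. WNT11, a non-canonical ligand, had 4 of 12 higher, among them 1 at 26.8 kb that rose from 0.607, 0.785 and 0.669 FPKM to 6.92, 9.17 and 8.07 FPKM (3.46). FZD10 had 5 of 16 lower, among them 1 at 24.5 kb that fell from 10.2, 9.77 and 10.0 FPKM to 0.523, 0.624 and 0.598 FPKM (-3.49). The FZD10 promoter fell with them, from 3.54, 5.41 and 5.02 FPKM to 1.34, 1.49 and 1.59 FPKM (-1.17, but 0.36 with bins of 1 Mb), and DKK1 from 16.3, 16.8 and 15.4 FPKM to 5.81, 6.05 and 6.77 FPKM (-1.05).

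Interferon-stimulated genes had 4 of 26 promoters higher and 0 lower, with 1 to 7 higher and 0 lower under every other scaling and pseudocount tried. IFI44L rose from 1.52, 0.960 and 0.557 FPKM to 3.78, 1.92 and 2.54 FPKM (log2 fold change 2.09 ± 0.29, adjusted p = 1.03e-06), and its neighbour IFI44 by 1.30. IRF9, the DNA-binding part of the interferon-activated complex ISGF3, rose from 2.73, 3.32 and 2.79 FPKM to 5.0, 6.67 and 4.73 FPKM (1.04), and IFIT1 by 1.01. Their distal windows gave 0 of 30 higher and 2 lower (6.67% against 2.34% of all such windows), nearest to RSAD2 (-2.03) and DDX60 (-2.50). Further, 2 of 14 promoters of antigen presentation were lower and none higher. CIITA, the master activator of MHC class II, fell from 7.99, 6.81 and 7.91 FPKM to 1.22, 2.06 and 2.79 FPKM (-1.76, adjusted p = 6.98e-08), and CD74, its target and the invariant chain, from 3.24, 3.58 and 3.23 FPKM to 0.639, 0.624 and 0.448 FPKM (-1.55). With regional shifts kept, 9 of these 14 were called higher, since the HLA genes lie in the region of chromosome 6 whose whole level was 1.60 higher in PEO4.

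**Figure D5:**
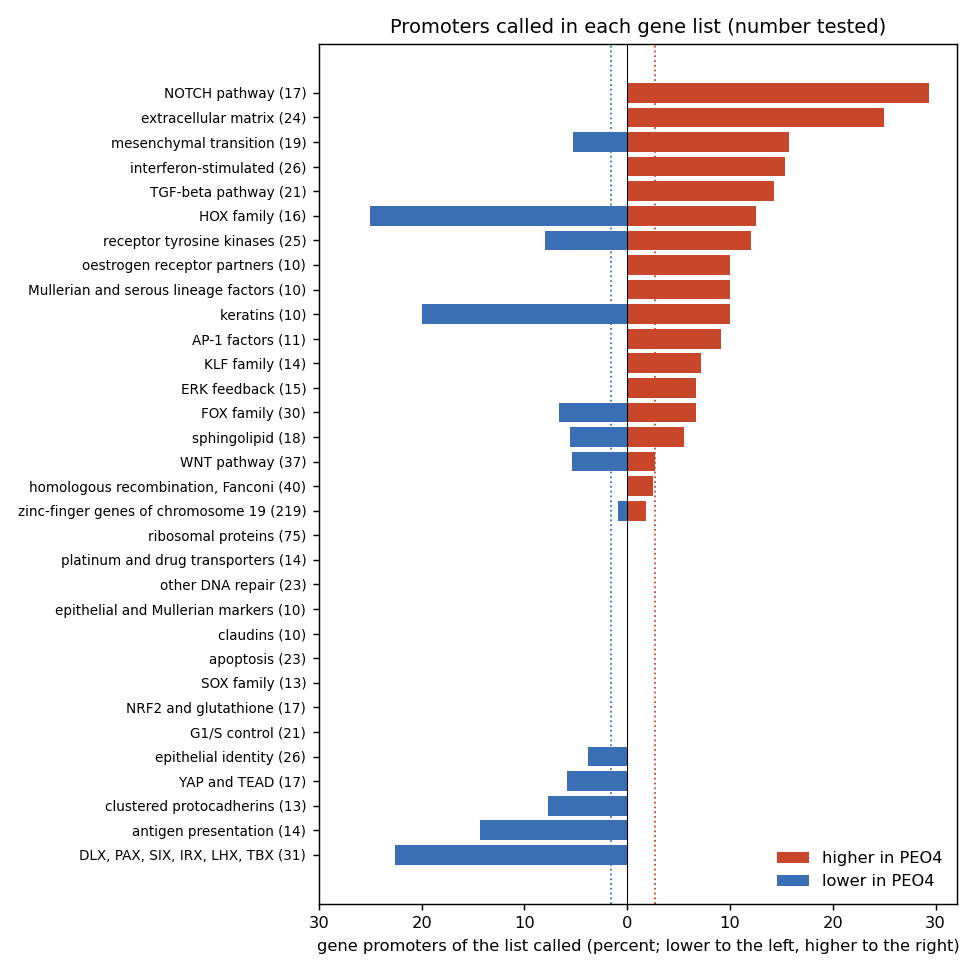
Percent of the tested promoters of each gene list called higher (right) or lower (left) in PEO4, at a log2 change over 1 and an adjusted p under 0.05, for lists with at least 10 tested promoters (number in brackets). Dotted lines mark the 2.71% and 1.6% of all 13605 gene promoters; NOTCH has 5 of 17 higher and the DLX to TBX list 7 of 31 lower.

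Of 40 promoters of homologous recombination and Fanconi genes, which bear on platinum response, 1 was higher and 0 lower (2.50%, close to the 2.71% of all promoters). It was that of FANCE, a subunit of the Fanconi core complex, which rose from 2.23, 3.32 and 2.67 FPKM to 9.59, 11.1 and 9.66 FPKM (log2 fold change 1.08 ± 0.14, adjusted p = 2.53e-07, and 2.21 before regional removal). BRCA2, a protein of homologous recombination, read 4.65, 5.15 and 4.46 FPKM in PEO1 and 3.78, 4.46 and 3.49 FPKM in PEO4 (0.13 ± 0.15, adjusted p = 0.48). BRCA1 (-0.09), FANCA (0.23), HUS1 (0.09), CHEK1 (0.12) and ATM (0.35) also stayed short of the limit. Of 41 distal windows of these genes 3 were higher, nearest to FAAP20, BARD1 and NBN, and 0 lower (7.32% against 3.99% of all such windows). That of BARD1, the partner of BRCA1, lies 6.6 kb from its start and went from 0.202, 0.349 and 0.223 FPKM to 3.78, 3.50 and 3.19 FPKM (3.53). Of 23 promoters of other repair pathways, 17 of NRF2 and glutathione genes, 23 of apoptosis genes and 21 of G1/S control, 0 were called in either direction by limma.

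None of 14 promoters of platinum and drug transporters was called, but 4 of their 39 distal windows were lower (10.3% against 2.34% of all such windows) and 0 higher. Of the 4, 3 adjoin each other within SLC22A2, which encodes the organic cation transporter OCT2 that takes up cisplatin in kidney. Adjoining windows overlap, so the 10.3% counts this stretch 3 times and cannot be read as a share of separate elements. The first fell from 4.25, 2.97 and 3.46 FPKM to 0.407, 0.528 and 0.399 FPKM (log2 fold change -2.28 ± 0.25), and the others by 2.27 and 2.30. The remaining one lies in ABCC2, the export pump MRP2, with a change of -2.22. All 4 were lower in every PEO4 library than in any PEO1 library, which the limit on the change in part requires. Distal shares of the other gene lists also count each window on its own, adjoining or not.

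Lineage genes of the Müllerian tract had 1 of 10 promoters called, EMX2, a homeobox factor of the uterus and gonads, which rose from 1.52, 1.22 and 1.45 FPKM to 2.67, 4.51 and 3.39 FPKM (log2 fold change 1.57 ± 0.20, adjusted p = 1.98e-07). A pair of adjoining windows 10.3 and 11.2 kb from its start rose too (2.80 and 3.31). Near MECOM, an oncogene of serous tumours, a pair of windows about 89 kb from the start fell, 1 of them from 10.5, 10.3 and 11.0 FPKM to 0.407, 0.576 and 0.648 FPKM (-2.50). Of 12 epithelial and Müllerian marker promoters 10 were tested and 0 called, with PAX8, a defining Müllerian factor, at 7.79, 8.55 and 7.36 FPKM in PEO1 and 5.23, 6.10 and 5.48 FPKM in PEO4. Such counts compare the 2 lines and cannot tell which cell type they are. Of 5 lymphocyte and myeloid markers only CD68 was tested (-1.12), and 2 of 6 fibroblast, 1 of 4 endothelial and 3 of 3 mesothelial markers were tested with 0 called.

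Among receptors and surface proteins, MERTK, a receptor tyrosine kinase related to AXL, rose while AXL fell. Its promoter went from 4.45, 6.63 and 6.24 FPKM to 12.4, 13.4 and 13.5 FPKM (log2 fold change 1.50 ± 0.15, adjusted p = 4.33e-09). KIT (1.47) and FGFR4 (1.04) were the other higher ones of 25 receptor tyrosine kinases, and NTRK3 (-1.04) the other lower one. PROM1, the stem-cell surface protein CD133, fell from 10.5, 10.0 and 9.25 FPKM to 1.80, 2.40 and 1.54 FPKM (-2.0, adjusted p = 1.71e-10), as the 1 called promoter of 8 in the stem-like list. Of 10 keratin promoters KRT5 (-2.07) and KRT78 (-2.28) were lower and KRT4 (1.04) higher, and KRT5, a basal keratin, fell from 4.35, 4.80 and 4.79 FPKM to 0.872, 1.10 and 0.946 FPKM. In the sphingolipid list CERS4, a ceramide synthase, rose from 4.55, 4.80 and 3.23 FPKM to 15.0, 16.7 and 14.6 FPKM (1.51), and S1PR1, a receptor for sphingosine-1-phosphate, fell from 11.2, 9.60 and 10.4 FPKM to 2.33, 1.92 and 2.49 FPKM (-1.40).

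Promoters of transcription factor families that bind the patterns above were counted against the 2.71% higher and 1.6% lower of all gene promoters, and no list of RUNX genes was used. Of 11 AP-1 promoters 1 was higher, BATF3 (log2 fold change 1.29), and 0 lower, with a list median of 0.47. Of 48 distal windows of this list 3 were higher and 0 lower, against 3.99% and 2.34% of all such windows. All 3 lie near FOS, and 1 of them went from 0.809, 0.349 and 0.111 FPKM to 3.72, 5.42 and 4.83 FPKM (3.67). Of the 4 NFI promoters NFIC was lower (-1.01), but it changed by only -0.36 with regional shifts kept and -0.70 as deposited, short of the limit. Of 30 FOX promoters FOXA2 and FOXN3 were higher and FOXF2 and FOXQ1 lower, all by less than 1 log2 unit with regional shifts kept. Of 13 SOX promoters 0 were called. The SOX9 promoter changed by -0.53 only after regional removal, and by 0.53 with regional shifts kept and 0.19 as deposited. Of 60 distal windows of the SOX list 4 were higher and 4 lower (6.67% each, against 3.99% and 2.34% of all such windows). Nearest to SOX9 were 2 of the higher and 1 of the lower.

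Of the genes the study names, 17 were taken, 16 of which had a tested promoter, and THBS1 was the 1 that passed. It passed as higher (1.05) only after regional removal, and was -0.12 with regional shifts kept and -0.46 as deposited. The study reports RNA of PARP9, SPHK1, DDX60L and BCAM as higher in all resistant lines. It reports that of CCDC80, TLE4, THBS1 and VEPH1 as lower, opposite to the THBS1 promoter call here. PARP9 changed by 0.55, BCAM by 0.53, TLE4 by 0.35, CCDC80 by 0.29, SPHK1 by 0.23, DDX60L by -0.20 and VEPH1 by -0.57, all short of the limit after regional removal. With regional shifts kept the changes were 0.69, 1.12, 0.14, 0.15, 1.29, -0.63 and -1.22 in the same order. Those of BCAM, SPHK1 and VEPH1 were then over 1 log2 unit in size, so their result rests on the scaling. CCDC80 and TLE4 instead had lower distal windows. A window 58.5 kb from CCDC80 fell from 7.08, 7.85 and 7.80 FPKM to 0.349, 0.480 and 0.697 FPKM (log2 fold change -3.21), and 2 windows within TLE4, a corepressor, fell by 2.05 and 2.44.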

How the data were processed

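ATAC-seq was measured in 3 libraries each of PEO1 and PEO4. Duplicates were dropped by the authors with Picard, and reads were aligned to hg19 with Bowtie2, of which those with a unique place were kept (versions not given in the sources used here). They deposited FPKM per window of 1000 bases, starting every 900. Windows do not differ in length, and the deposited FPKM of these 6 columns are therefore RPM, of which 100% of values were whole multiples of 1 read within 0.1. The chromosome layout matched GRCh37 at 23 of 23 chromosomes, and gene starts are from GENCODE 44 mapped to GRCh37.

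Values were taken as log2(FPKM + 0.1), centred per library on the median and per bin of 5 Mb (bins under 20 windows used the chromosome median), and tested two-sided with limma 3.58.1 (lmFit, eBayes with trend) in R 4.3.3, adjusted by Benjamini-Hochberg over 77654 windows. A gene's promoter was the tested window nearest its canonical start within 1 kb, and its distal windows were those nearest its start within 100 kb. On simulated reads the fit was tested on known changes. The edgeR 4.0.16 quasi-likelihood test on the recovered reads called 4396 windows against 3774 by limma. Alternatives covered pseudocount, filter, scaling, bin size, GC content, tool, replicate block and each library left out.

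Named were the 10 largest distal and promoter changes each way (libraries not overlapping, 1 Mb apart), the clusters, the extreme regions, up to 4 called promoters per list and direction, and 17 genes taken from those the study names. Results at a few of these loci are not reported here. The members and lists were chosen with earlier results of these data known. Deviations of same-numbered libraries correlated at r of 0.013, 0.018 and 0.015, under the limit of 0.1, so they were not treated as pairs. No 2 libraries of a line held the same values: chi-square per window between replicates was 1.09 to 1.12 in PEO1 and 1.15 to 1.64 in PEO4. Counting noise alone gives about 1, so these values cannot tell separate cultures from repeats of 1 preparation.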

Additional observations from a re-analysis of the deposited data

How the results depend on the processing

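Of 103 named windows and promoters past their limit, 100 kept their direction under each of up to 20 alternatives and 57 also stayed past the limit under each. The exceptions were FZD10 (0.36) and TBX3 (0.71) with bins of 1 Mb, and THBS1 with regional shifts kept (-0.12) and as deposited (-0.46). Counts of windows, higher then lower, moved with the pseudocount, the filter and the scaling. With a pseudocount of 1 they were 406 and 133 (distal), 11 and 12 (promoter) and 348 and 215 (promoter, log2 change over 1). With a mean over 3 FPKM they were 284 and 418, 26 and 34, and 372 and 207, where fewer windows are tested. With regional shifts kept they were 2570 and 2273, 273 and 134, and 3292 and 1065. As deposited they were 1762 and 4004, 125 and 240, and 1518 and 2262. After GC correction, promoters were 71 and 115, and 551 and 969. With classes from all annotated transcripts, which make promoters of more windows, promoters were 295 and 221, and 1641 and 1301. At thresholds of 1 and 0.05, 5390 and 7090 distal and 895 and 505 promoter windows were called. Other counts stayed within 1.5 times the reported ones. Leaving out each library gave 1980 to 2152 and 1204 to 1363 distal windows, 82 to 97 and 76 to 88 promoter windows, and 821 to 1034 and 500 to 551 at a change over 1. All 1254 lower and 2111 of the 2130 higher distal windows were also called by edgeR, which called 1707 and 2229. With the replicate block 2131 and 1254 distal and 92 and 82 promoter windows were called. Each library correlated best with its own number in the other line, which is a hint from the data and not from the design. The cause of these differences was not tested. PEO1 libraries were less deep, so low levels there are less precise.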

Other observations

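Promoters differed by base composition. Of 318 gene promoters under 45% GC, 16 were higher and 21 lower (5.03% and 6.60%), and of 5255 promoters of 65% GC and over, 202 were higher and 64 lower (3.84% and 1.22%). Zinc-finger genes of chromosome 19 had 4 of 219 promoters higher and 2 lower, near or below the shares of all genes. ZNF69 rose from 0.304, 0.349 and 0.334 FPKM to 5.23, 6.67 and 5.58 FPKM (log2 fold change 3.42, limma adjusted p = 5.49e-10), and ZNF98 fell from 5.97, 6.46 and 6.80 FPKM to 0.698, 1.34 and 0.747 FPKM (-2.54). With regional shifts kept, 17 of the 219 were higher and 1 lower. Of 75 promoters of ribosomal proteins 0 were called, and 10 were higher with regional shifts kept. Of 13 clustered protocadherin promoters 1 was lower, PCDHGC5, from 3.44, 2.62 and 3.57 FPKM to 0.581, 0.384 and 0.149 FPKM (-2.33).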
